A study of Mus musculus with 40 samples.

Results

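The cytosolic ribosomal protein genes are the genes of the Rpl and Rps series, together with Rplp0, Rplp1, Rplp2 and Rpsa. They were chosen by name, as rows called Rpl or Rps plus a number and an optional short suffix, with a mean of at least 1 RPKM (the read count scaled to gene length and to the size of the library) in a table. Of 54513 rows, 89 carried such a name and 85 were members in at least 1 table, with 84 in each GL261 table and 85 in the U87-MG table. The annotation gave 81 of them as protein-coding (49 of the large and 32 of the small subunit) and 4 as processed pseudogenes (Rps4l, Rpl6l, Rps3a2 and Rps3a3). The tests covered the protein-coding members, 80 in the GL261 tables and 81 in the U87-MG table. Rpl10l, Rpl3l, Rps12l1 and Rpl32l stayed under 1 RPKM in all 3 tables, and Rpl39l reached it only in the U87-MG table. Members just inside the limit were Rpl6l at 1.04 RPKM in the 21 DPI GL261 table and Rps10 at 1.19 RPKM in the U87-MG table, and just outside it was Rpl39l at 0.757 RPKM in the 28 DPI table.

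RNA was taken from CD11b+ cells, a gate that keeps microglia and infiltrating myeloid cells, FACS-sorted from hemispheres of adult male mice. C57BL/6 mice implanted with the murine glioma line GL261 (tdTomato+ luc+) were analysed 21 days post-implantation (DPI), in 3 samples each of vehicle, 7aaRGD, 7aaRAE and naïve mice without a tumor, every sample a pool of 2 animals. GL261 gliomas at 28 DPI gave 4 vehicle, 4 7aaRGD, 3 anti-PD-1 and 3 combination (7aaRGD with anti-PD-1) samples of 1 animal each. The study describes these mice as C57BL/6 and the labels call them nude. The human line U87-MG (RFP+) was implanted in athymic nude mice, which lack mature T cells, with 3 samples each of vehicle, 7aaRGD and 7aaRAE at 21 DPI, again pools of 2 animals. 7aaRGD is an integrin-blocking peptide, and in 7aaRAE the integrin-binding RGD motif is changed to RAE. All tumor-bearing mice carried a pump that delivered water (vehicle) or peptide into the tumor, the anti-PD-1 antibody was injected intraperitoneally, and the antibody's control groups received IgG.

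The deposited values were RPKM plus 2, each table was normalized on its own, and the constant was subtracted here. The files give no read totals, and the sequencing depth of a sample is unknown. Levels are set beside each other across tables only as separately normalized values. Markers of the sort (Itgam, Ptprc, Csf1r, Aif1, Cd68, Tyrobp and Fcer1g) reached 1 RPKM in every group, 7 of 7, and the T cell list (Cd3e, Cd3d, Cd3g, Cd2, Trac, Lck, Cd8a and Cd4) summed to at most 16.4 RPKM in any sample. In these bulk samples fewer cells of a type and less RNA per cell cannot be told apart. The p-values set a difference between groups against the spread between samples within groups, pooled over the groups tested together.

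Each cytosolic ribosome holds a small subunit, which reads the mRNA, and a large subunit, which joins the amino acids. Every subunit needs most of its proteins in about equal numbers. Rplp0, Rplp1 and Rplp2 form the stalk of the large subunit, where the elongation factors bind. Vertebrate mRNAs of ribosomal proteins begin with a C followed by a run of pyrimidines, the 5′ terminal oligopyrimidine (TOP) motif, through which mTORC1 and LARP1 control their translation and stability together. In macrophages and microglia the ribosomal protein mRNAs are among the most abundant of all mRNAs, and their share moves with growth state and activation.

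Start sites are shown for 8 members because the TOP motif is what these mRNAs share beside their product. The windows run from 10 bases before to 10 after the annotated start, on GRCm38.p6, with sequences from RefSeq. Capitals mark the match nearest to the annotated start, a C and the unbroken C or T bases after it (at least 4). Pyrimidines before that C and other matches in a window stay in lower case.
Rpl14 (chr9:120571507-120571527, plus strand): ggccctctctCTTCTCgctga
Rplp2 (chr7:141447641-141447661, plus strand): cagcgtcttcCTTTCgccgcc
Rps6 (chr4:86857357-86857377, minus strand): gaagtcgggcCTCTTTTTCgt
Rps27 (chr3:90213638-90213658, minus strand): cgctttcgctCCTTTCCggcg
Rps27l (chr9:66946076-66946096, plus strand): cctccccgccgCCTCTatccc
Rpl7l1 (chr17:46782646-46782666, minus strand): gctgcgcaagcgcagtagctg
Rplp0 (chr5:115559457-115559477, plus strand): cgggtttcgaggaccgcctgg
Rpsa (chr9:120127756-120127776, plus strand): ttatttaaggacgtcatttcc
In Rpl14, Rplp2, Rps6 and Rps27 the first base of the annotated mRNA is the C of a match, although the genomic pyrimidines extend further upstream. The nearest match in Rps27l begins 1 base after the start, and in Rpl7l1, Rplp0 and Rpsa these letters are not in the window. Of the 80 members, 60 had a RefSeq window, in 71 rows with alternative starts. The motif (C, then 4 or more of C or T, on the sense strand) was in 38 of those rows, or 53.5%, against 30.7% of all 32851 windows. A match began exactly at the start in 13 rows, or 18.3%, against 2.51% of all windows, and the median pyrimidine content was 61.9% against 47.6%. An annotated start is not always the start that cells use.

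Ribosomal protein genes were short and highly expressed. Their median exonic length was 1805.5 bases, with a range of 383 to 6270 bases, against a median of 4453 bases in the other genes tested at 28 DPI, and they lie on 19 chromosomes. The median member stood at 239 RPKM in the 21 DPI GL261 table, 296 in the 28 DPI table and 198 in the U87-MG table. Rplp1, which with Rplp2 makes up the tip of the stalk (chr9:61913284-61914542 on mm10), was the highest in every table, with means of 1768, 2250.1 and 1678 RPKM. Also among the 5 highest were Rps15, Rplp0 and Rpl36 in both GL261 tables, and Rps29, Rps15 and Rplp0 in the U87-MG table. When each value was recomputed per base of the main mRNA instead of per base of all exons, Rplp1 stayed first and Rps9, Rpl32, Rps29 and Rps27 followed at 28 DPI.

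The lowest protein-coding members were those whose exons lie under another annotated gene, or minor paralogs (Rpl22l1 and Rpl7l1). Rps10 (chr17:27630418-27636669) had a mean of 2.22 RPKM at 28 DPI, and 70.8% of its mRNA is overlapped on the same strand by the annotated gene RPS10-NUDT3. Rpl24 had 20.3 RPKM with 71.5% overlapped by Gm28037, and Rpl13a had 12.1 RPKM with 59.3% overlapped by Gm45713. Reads in an overlap are not assigned to either gene by HTSeq in its default mode, so these levels are uncertain. Processed copies are a further limit for the whole family, since a median of 50% of the 50-base windows of a member's mRNA were also found in the transcripts of another gene, and 40 members exceeded 50% in this measure. Values of single members are uncertain to that extent. In 30 members the gene of a small nucleolar RNA lies within the member's span.

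The summed level of the members was higher in tumor-bearing than in naïve mice and stepped down between the groups at 28 DPI. In naïve mice the members held 4.27% ± 0.131% of the summed RPKM (SD, n = 3), and in vehicle mice at 21 DPI 7.45% ± 0.213% (n = 3). The peptide groups at 21 DPI were close to vehicle, with 7.79% ± 0.395% for 7aaRGD and 7.56% ± 0.457% for 7aaRAE, and their samples overlapped with those of vehicle. At 28 DPI the share was 10.8% ± 0.283% in vehicle (n = 4), 9.08% ± 0.191% with 7aaRGD (n = 4), 8.07% ± 0.347% with anti-PD-1 (n = 3) and 6.87% ± 0.243% with the combination (n = 3). None of these 4 groups overlapped with another, the lowest vehicle sample being at 10.6% and the highest combination sample at 7.10%. In U87-MG gliomas the share was 7.05% ± 0.541% with vehicle, 6.53% ± 0.557% with 7aaRGD and 6.8% ± 0.427% with 7aaRAE (n = 3 each), with overlapping samples.

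**Figure D1:**
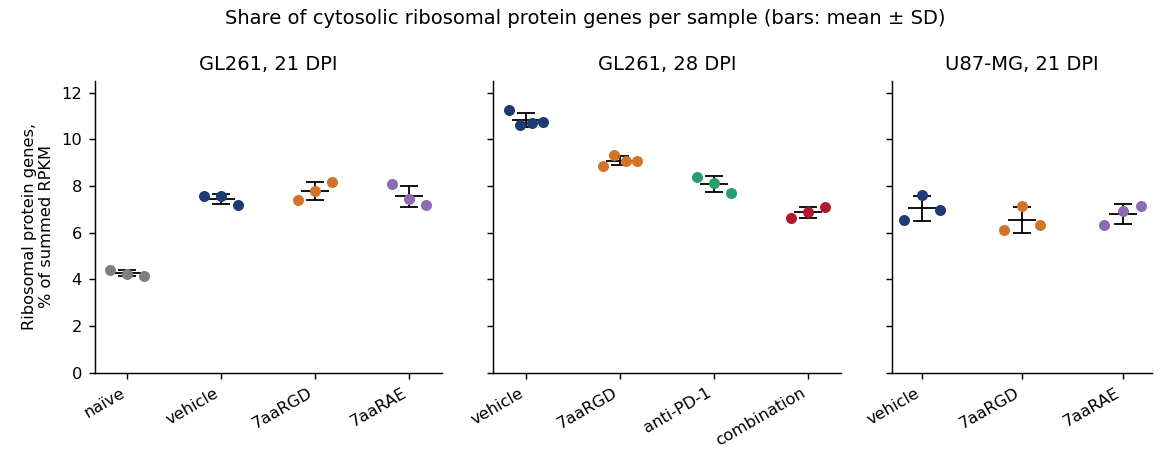
Percentage of the summed RPKM held by ribosomal protein genes (y axis) in each sample (points) of each group (x axis), with mean ± SD as bars, in the 3 tables. Naïve samples lie at 4.16% to 4.41%, below all tumor-bearing samples, and the 28 DPI groups step down from vehicle to the combination.

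Comparing vehicle with naïve mice asks how CD11b+ cells of a glioma-bearing hemisphere differ from those of a healthy brain. Nearly all ribosomal protein genes were higher in vehicle mice. These mice also had surgery and a pump, which are not described for naïve mice, so tumor and procedure cannot be told apart. By limma, 78 of 80 members were called higher at an adjusted p under 0.05, when 34.6% of all 9722 genes tested were, and 1 was called lower, when 48.2% were. The groups of all 78 did not overlap, when 35.5% of all genes were higher in that way. The median log2 fold change of the members was 1.14, while the median of all genes was -0.14. With TMM scaling, under which the median of all genes was 0.00053, 79 members were higher, none was lower and the median was 1.30.

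Both subunits rose, with a median log2 fold change of 1.20 for the small and 1.11 for the large subunit. Rps19, a small subunit protein whose mutations cause Diamond-Blackfan anemia, had 32.3, 30.5 and 28.2 RPKM in the naïve and 99.3, 104 and 96.6 RPKM in the vehicle samples (log2 fold change 1.69, SE 0.065, adjusted p = 1.27e-07). Rpsa, also known as the laminin receptor, had 109, 108 and 103 RPKM in the naïve and 345, 366 and 319 RPKM in the vehicle samples (log2 fold change 1.68, SE 0.066, adjusted p = 1.46e-07). In both genes the lowest vehicle sample was above the highest naïve sample. Rps2, Rps26 and Rpl41 followed with log2 fold changes of 1.65, 1.58 and 1.58. Among the landmark members, Rplp0 rose by 1.54, Rplp2 by 1.07, Rps6, the S6 kinase substrate, by 1.22, and Rps27a, which is made as a fusion with ubiquitin, by 1.06, all with adjusted p of at most 1.02e-06.

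Rplp1 was the stalk protein that rose least. Its level was 1441, 1384 and 1282 RPKM in naïve and 1941, 2045 and 1731 RPKM in vehicle samples (log2 fold change 0.47, SE 0.087, adjusted p = 0.0011), and its direction turned to -0.48 when the trend of fold change with gene length was removed. Rpl7l1, the paralog of Rpl7 that is found in ribosome precursors, was the member called lower, with 28.1, 29.8 and 30.3 RPKM in naïve and 25.9, 23.4 and 25.5 RPKM in vehicle samples (log2 fold change -0.23, SE 0.060, adjusted p = 0.00728). Under TMM scaling the call for Rpl7l1 was lost. Rpl7 itself rose, from 142 ± 4.31 to 278 ± 5.57 RPKM (SD, n = 3 each; log2 fold change 0.96, SE 0.053, adjusted p = 8.18e-07). Rps10 was not called (log2 fold change 0.17, SE 0.087, adjusted p = 0.0957).

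The cells of these groups differed in their markers as well. The 10 microglia markers summed to 17443 to 18040.1 RPKM in naïve and 1438 to 2107 RPKM in vehicle samples, and the 8 monocyte and macrophage markers to 446 to 489.6 and 6530.4 to 7558 RPKM, with all 10 and all 8 above 1 RPKM in both groups. Proliferation markers summed to 29.7 to 31.9 RPKM in naïve and 54.5 to 64.8 RPKM in vehicle samples. Mitochondrially encoded genes held 1.43% to 1.92% of the summed RPKM in naïve and 0.972% to 1.10% in vehicle samples. The part of these shifts in the higher ribosomal protein levels was not tested.

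**Figure D2:**
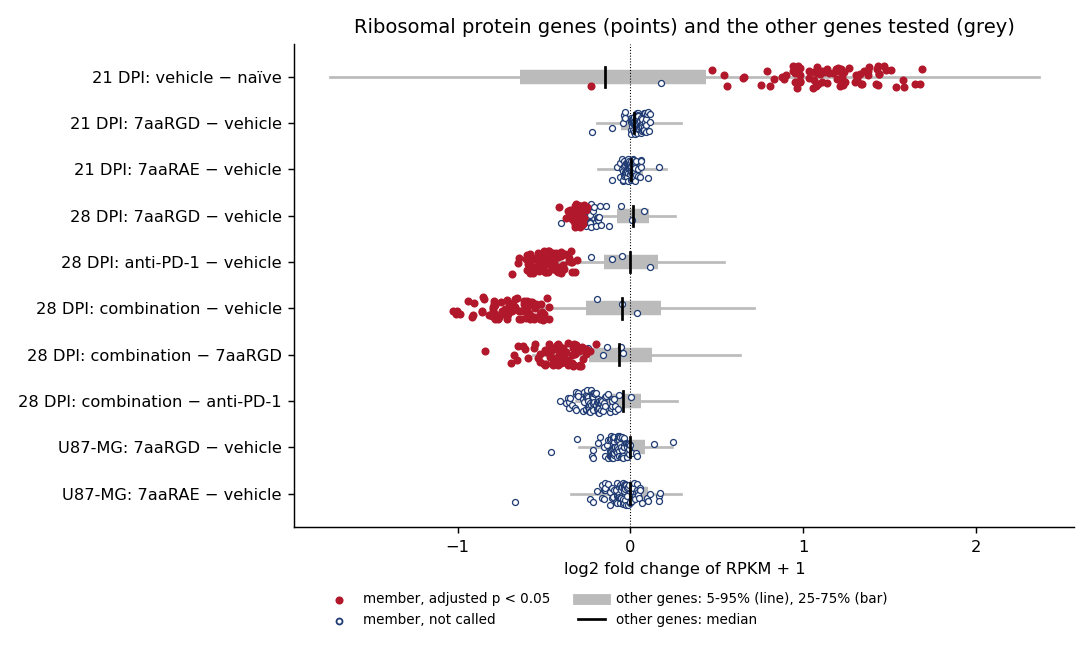
Log2 fold change of RPKM + 1 (x axis) of each ribosomal protein gene (points, filled red where the adjusted p is under 0.05) in 10 comparisons (y axis), over the central range (grey line), the interquartile range (grey bar) and median (black tick) of the other genes tested. The members lie to the right of the other genes in vehicle against naïve mice, to their left in the treated GL261 groups at 28 DPI, and around 0 with the peptides at 21 DPI.

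At 28 DPI the study asked what 7aaRGD, anti-PD-1 and their combination do to the myeloid cells of GL261 gliomas. The pumps were installed at the time of implantation, and the antibody was given later. Ribosomal protein genes stood lower in all 3 treated groups. Group means fell in the order vehicle, 7aaRGD, anti-PD-1, combination in 77 of the 80 members, an order shown by 1858 of 9731 genes, or 19.1%. The comparisons with vehicle share the 4 vehicle samples, so they are not independent. Against vehicle, 76 of 80 members were lower with anti-PD-1 (limma, adjusted p under 0.05; 12.2% of all genes were lower) with a median log2 fold change of -0.48. With the combination 77 were lower (25.7% of all genes), with a median of -0.70. With 7aaRGD alone 42 were lower (0.524% of all genes) with a median of -0.29, and this count fell to 0 under several other settings. No member was called higher in any of these 3 comparisons, when 10.8%, 17.5% and 0.123% of all genes were.

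The stalk shows the steps. Rplp0, its base, had 1259, 1151, 1157 and 1257 RPKM in vehicle, 989.6, 1038, 980.3 and 948 RPKM in 7aaRGD, 856, 851 and 783 RPKM in anti-PD-1 and 677, 718 and 706 RPKM in combination samples. No sample of one group overlapped with another group's. Against vehicle the log2 fold change of Rplp0 was -0.29 with 7aaRGD (SE 0.057, adjusted p = 0.0426), -0.54 with anti-PD-1 (adjusted p = 0.000143) and -0.78 with the combination (adjusted p = 1.62e-06). Rplp1 changed by -0.29, -0.53 and -0.75 in the same comparisons (adjusted p = 0.0342, 0.000124 and 1.50e-06), and Rplp2 by -0.24, -0.40 and -0.55 (adjusted p = 0.0899, 0.000824 and 2.03e-05).

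Of the large subunit, Rpl14 had the largest fall with the combination. Its level, from the gene whose TOP run is printed above, was 411, 377, 401 and 388 RPKM in vehicle, 324, 324, 299.9 and 303 RPKM in 7aaRGD, 258, 253 and 241 RPKM in anti-PD-1 and 177, 205 and 198 RPKM in combination samples. The combination samples lay at less than any other sample of the table, and the log2 fold change against vehicle was -1.03 (SE 0.065, adjusted p = 4.85e-07). Rpl12, which sits at the base of the stalk, fell by 1.01 on the log2 scale with the combination and by 0.69 with anti-PD-1, where it led the members. Rpl32 fell by 1.00 and Rpl36 by 0.94 with the combination. With 7aaRGD alone Rpl36 led, at 1379, 1255, 1303 and 1260.0 RPKM in vehicle, 1026, 936, 983 and 949 RPKM in 7aaRGD, 897, 874 and 804 RPKM in anti-PD-1 and 670.0, 686 and 675 RPKM in combination samples, a log2 fold change of -0.42 (SE 0.057, adjusted p = 0.0317), followed by Rps28 at -0.37, Rpl38 at -0.36, Rpl28 at -0.35 and Rpl32 at -0.35.

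Of the small subunit, Rpsa had 474, 439, 450.4 and 475 RPKM in vehicle, 377, 389, 358 and 379 RPKM in 7aaRGD, 311, 309 and 286 RPKM in anti-PD-1 and 230.1, 252 and 250.4 RPKM in combination samples, and changed by -0.29 with 7aaRGD (adjusted p = 0.0342), -0.60 with anti-PD-1 (adjusted p = 9.13e-05) and -0.91 with the combination (adjusted p = 6.81e-07). Rps6 had 286, 276, 261 and 276 RPKM in vehicle, 235, 258, 246 and 236 RPKM in 7aaRGD, 207, 208 and 197 RPKM in anti-PD-1 and 169, 189 and 194 RPKM in combination samples, and changed by -0.17 (adjusted p = 0.204), -0.43 (adjusted p = 0.000736) and -0.58 (adjusted p = 2.04e-05). In both genes the vehicle samples were above every treated sample and the combination samples were the lowest. Rps12 was among the 5 largest falls with anti-PD-1, at -0.60, and Rps27a changed by -0.21, -0.45 and -0.70 with 7aaRGD, anti-PD-1 and the combination. The subunits moved alike, with combination medians of -0.69 for the large and -0.70 for the small subunit.

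**Figure D3:**
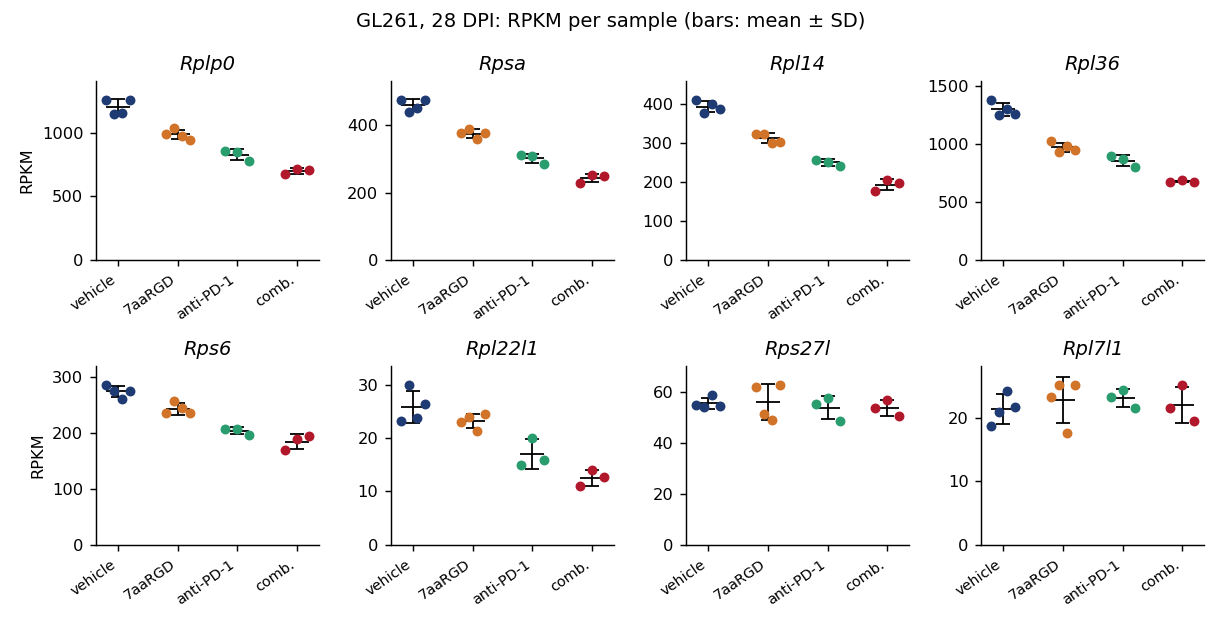
RPKM (y axis, from 0) of 8 members in each GL261 sample at 28 DPI (points) by group (x axis), with mean ± SD as bars. Rplp0, Rpsa, Rpl14, Rpl36, Rps6 and Rpl22l1 step down in their means from vehicle to the combination, while the groups of Rps27l and Rpl7l1 overlap.

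The 7aaRGD comparison had few calls of any kind, and most were ribosomal protein genes. Of the 51 genes called lower, 42 (82.4%) were members, and the others were Mt1, Pold4, Rtl8a, Tbca, Nsa2, Eif3h, Apopt1, Eif3k and Btf3, named here because they complete the count. The smallest adjusted p of a member was 0.0317, and 71 members had groups that did not overlap (4.05% of all genes were lower in that way). The call was lost, with 0 members past the threshold, under TMM or median-of-ratios scaling, with the length trend removed, with 1 residual degree of freedom less, with only these 2 groups in the fit, and in each of the 8 refits that left out 1 sample of either group. The median log2 fold change stayed between -0.30 and -0.23 under all settings tried. At an unadjusted p under 0.05, 75 members were lower in this fit, against 6.58% of all genes.

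In the combination against 7aaRGD alone, 75 of 80 members were lower (23.5% of all genes were), with a median log2 fold change of -0.41, and 63 were under TMM scaling. The largest falls were Rpl22l1 at -0.84, Rpl14 at -0.69, Rpl12 at -0.68, Rpl10a at -0.66 and Rpl32 at -0.65, each with an adjusted p of at most 0.000147. In the combination against anti-PD-1 alone no member passed the threshold (limma; 0.0206% of all genes were called lower), although 79 of 80 fold changes were negative, the median was -0.22 and 67 members had an unadjusted p under 0.05 (11% of all genes). The median of all genes was -0.042 there, and 71.1% of the other genes in the shortest decile of exonic length were negative. The members' median was -0.16 under TMM scaling and -0.15 with the length trend removed. Members share the same libraries and scaling and are not replicates. The interaction term, which asks whether the combination departs from the sum of the single treatments, called no member. Its median was 0.056 for the members and -0.055 for all genes, and under TMM scaling 0.124 and 0.0038. It was positive in 65 of 80 members, and in 76 under TMM scaling. In the higher direction 2 members had an unadjusted p under 0.05 by limma, where 2.31% of all genes did.

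Scaling changes how these falls stand against all genes. Of all calls, 46.9% were higher with anti-PD-1, 40.5% with the combination and 35.6% for the combination against 7aaRGD, and under TMM scaling 57.2%, 55.4% and 56.4%. The members' medians under TMM scaling were -0.45, -0.62 and -0.32, and the counts called with anti-PD-1 and the combination were 76 and 77 as before. The marker lists moved too. The 8 monocyte and macrophage markers summed to 3065 to 3478 RPKM in vehicle, 2690.0 to 3609 in 7aaRGD, 4414 to 6397 in anti-PD-1 and 6596 to 8226 in combination samples. The 10 microglia markers summed to 1659.9 to 2364 RPKM in vehicle, 1903 to 3442 in 7aaRGD, 1904 to 2757 in anti-PD-1 and 2549 to 2725 in combination samples. Mitochondrially encoded genes held 3.01% to 4.37% of the summed RPKM in vehicle, 2.23% to 3.87% in 7aaRGD, 2.44% to 3.39% in anti-PD-1 and 2.25% to 2.42% in combination samples. Markers of T cells and dendritic cells were low in vehicle samples and higher in combination samples. The 8 T cell markers summed to 1.62 to 2.95 and 5.19 to 9.20 RPKM (0 and 4 of 8 above 1 RPKM). The 6 dendritic cell markers summed to 1.21 to 2.86 and 12.4 to 16.6 RPKM (0 and 4 of 6). Neutrophil markers were not low, at 155 to 343 RPKM in vehicle and 82.9 to 195 RPKM in combination samples, ranges that overlapped. Oligodendrocyte lineage markers were lower in every combination sample than in any vehicle sample. The 6 NK cell markers summed to 3.41 to 9.64 RPKM in vehicle and 20.8 to 64.2 RPKM in combination samples, with 3 and 5 of 6 above 1 RPKM, and proliferation markers to 62.5 to 78.5 and 56.6 to 68.6 RPKM. The part of these shifts in the lower ribosomal protein levels was not tested.

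Minor paralogs did not all follow their partners. Rps27l, the p53-induced paralog of Rps27, had 54.7, 54.1, 58.8 and 54.4 RPKM in vehicle, 61.7, 51.2, 48.9 and 62.6 RPKM in 7aaRGD, 55.0, 57.4 and 48.5 RPKM in anti-PD-1 and 53.5, 56.8 and 50.5 RPKM in combination samples, and its fold change with the combination was -0.050 (adjusted p = 0.69, 95% interval -0.25 to 0.15), turning to 0.031 under TMM scaling. Rps27 changed by -0.58 in the same comparison (adjusted p = 0.000314), an interval of -0.78 to -0.38 that does not meet that of Rps27l, although the difference itself was not tested. Rpl7l1 stayed between 17.6 and 25.3 RPKM over all 14 samples (combination 0.039, adjusted p = 0.821) while Rpl7 fell by 0.48 on the log2 scale (adjusted p = 5.02e-05). Rpl22l1 behaved otherwise: it had 23.3, 30.1, 23.8 and 26.4 RPKM in vehicle, 23.1, 24.1, 21.4 and 24.5 RPKM in 7aaRGD, 15.0, 20.2 and 16 RPKM in anti-PD-1 and 11, 14 and 12.7 RPKM in combination samples, and changed by -0.99 with the combination (adjusted p = 2.35e-05), beside -0.47 for its partner Rpl22, an RNA-binding large subunit protein (adjusted p = 3.74e-05). Rpl10, Rpl3 and Rpl39, whose paralogs stayed under the limit at 28 DPI, changed by -0.50, -0.64 and -0.71 with the combination, with adjusted p of at most 8.53e-05. Rpl13a was the further member not called with the combination (log2 fold change -0.19, SE 0.11, adjusted p = 0.186).

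Rps4l, a processed copy of the small subunit gene Rps4x, went against its parent between naïve and vehicle mice. In a fit over all named rows it had a log2 fold change of -1.01 (adjusted p = 3.18e-05), with 26.9, 31.5 and 28.2 RPKM in naïve and 13.6, 15.8 and 12.3 RPKM in vehicle samples, while Rps4x rose by 0.79 (adjusted p = 4.10e-06). How alike the members were can be described by the correlation of each member's centred profile with the median member profile. Its median was 0.998 over the 12 samples at 21 DPI, 0.984 over the 14 samples at 28 DPI and 0.886 over the 9 U87-MG samples, where points share libraries and scaling. The samples at 21 DPI include the naïve mice, in which the members stood lower, and the other tables have none. These medians therefore do not compare how alike the members were between tables. The least alike were Rpl7l1 (-0.84), Rps10 (0.75) and Rplp1 (0.94) at 21 DPI, Rpl7l1 (-0.16), Rps27l (0.19) and Rpl13a (0.45) at 28 DPI, and Rpl39l (-0.50), Rps10 (-0.25) and Rps3a1 (0.27) in U87-MG gliomas.

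Gene length bears on each of these comparisons, because short genes as a class moved in the same direction as the members. Over the other genes tested, the Spearman correlation of fold change with exonic length was -0.216 for vehicle against naïve mice, 0.356 for 7aaRGD against vehicle at 28 DPI, 0.102 for anti-PD-1 and 0.169 for the combination, given across genes as a description. The genes of like exonic length are therefore the closer comparison. The members' main mRNAs were shorter than their summed exons, with a median of 756 bases at 28 DPI. Matching by mRNA length was not done. In the decile of 1786 to 2522 bases, the other genes had a median of -0.054 with 7aaRGD and the 16 members there -0.24. The same decile gave -0.12 against -0.64 with the combination, and that of 1803 to 2534 bases gave 0.049 against 1.13 in vehicle against naïve mice. In the shortest decile the medians were -0.095 for other genes and -0.30 for 40 members with 7aaRGD, -0.17 and -0.71 with the combination, and 0.43 and 1.22 in vehicle against naïve mice. With the length trend removed from each sample, 76 members with anti-PD-1 and 77 with the combination were still lower, with medians of -0.48 and -0.63, and in vehicle against naïve mice 74 were higher and 4 (Rps21, Rplp1, Rps29 and Rpl7l1) lower, with a median of 0.76.

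**Figure D4:**
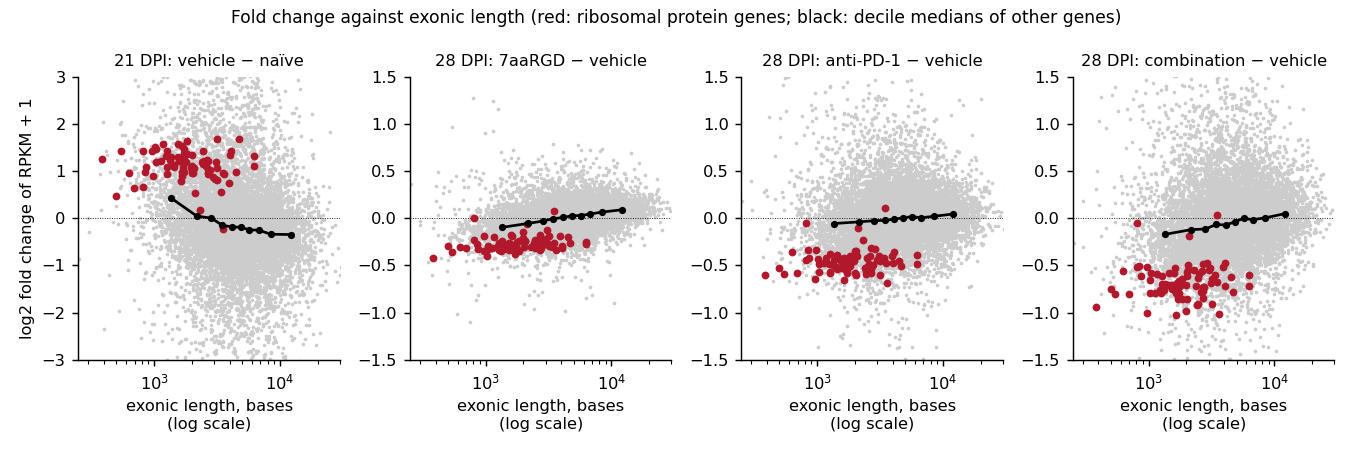
Log2 fold change of RPKM + 1 (y axis) against exonic length in bases (x axis, log scale) for ribosomal protein genes (red), other genes (grey) and the medians of the other genes by length decile (black line) in 4 comparisons. Points beyond the axes are not drawn. Most members lie above the line of other genes in vehicle against naïve mice and below it in the treated groups, with exceptions such as Rplp1 and Rpl7l1 in the former.

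Genes that work with the ribosome were read from fixed lists, and their counts stand beside the shares of all genes already given (34.6% higher and 48.2% lower in vehicle against naïve mice, and 0.524%, 12.2% and 25.7% lower with 7aaRGD, anti-PD-1 and the combination). Fau, a ribosomal protein gene that the name rule leaves out and whose product is made as a ubiquitin-like fusion, had 1082, 1014, 964 and 965 RPKM in vehicle and 680.2, 669 and 731 RPKM in combination samples (log2 fold change -0.54, adjusted p = 8.48e-05). Of 18 translation factors and other mRNAs of the TOP class, 18 were higher in vehicle against naïve mice (median 1.08), and 3, 12 and 15 were lower with 7aaRGD, anti-PD-1 and the combination (medians -0.18, -0.30 and -0.45). Eef2, the factor that moves the ribosome along the mRNA, had 1185, 1154, 1050.0 and 1209 RPKM in vehicle and 714, 804 and 789 RPKM in combination samples (log2 fold change -0.58, adjusted p = 3.59e-05). Eef1a1, which delivers tRNAs, had a log2 fold change of -0.43 there (adjusted p = 0.000571), and Tpt1 of -0.47 (adjusted p = 0.000113).

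Noncoding hosts of small nucleolar RNAs, whose transcripts carry the TOP motif and no ribosomal protein, also moved with the members. In the fit over all named rows the 7 hosts (Gas5, Snhg1, Snhg5, Snhg6, Snhg8, Snhg12 and Zfas1) were all higher in vehicle against naïve mice (median 1.01; 35% of all rows were higher), all lower with anti-PD-1 (median -0.75; 12.2% lower) and all lower with the combination (median -1.0; 25.5% lower), while none was called with 7aaRGD (median -0.29; 0.705% lower). Zfas1 had the log2 fold change of 2.82 in vehicle against naïve mice (adjusted p = 2.44e-07), Gas5 of -1.0 (adjusted p = 1.09e-05) and Snhg6 of -1.54 (adjusted p = 9.03e-07) with the combination. In U87-MG gliomas no host was called, and the hosts' medians were 0.17 with 7aaRGD and 0.32 with 7aaRAE. The members' medians there were negative, at -0.079 and -0.038.

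The remaining lists cover ribosome assembly, its control and the mitochondrion, and differences between lists were not tested. Of 30 ribosome biogenesis genes, 15 were higher and 6 lower in vehicle against naïve mice (median 0.21), and 0, 8 and 13 were lower with 7aaRGD, anti-PD-1 and the combination (medians -0.036, -0.062 and -0.26). Of the 13 genes of mTORC1 and TOP control, 3 were higher and 7 lower in vehicle against naïve mice, close to the 48.2% of all genes that were lower. With the combination 2 were higher and 5 lower (median -0.17), when 17.5% and 25.7% of all genes were. Mitochondrial ribosomal protein genes, the counterpart family in the mitochondrion, counted 53 of 77 higher in vehicle against naïve mice (median 0.40) and 44 of 77 lower with the combination (median -0.23). Oxidative phosphorylation genes, which are short like the members (median exonic length 1578 bases in the naïve comparison), counted 67 of 72 higher in vehicle against naïve mice (median 0.93) and 43 of 75 lower with the combination (median -0.26).

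At 21 DPI the peptides left the members near vehicle. With 7aaRGD no member passed the threshold by limma, when 0.138% of all genes were called higher and 0.0106% lower. None had an unadjusted p under 0.05 either, a level that 9.32% of all genes passed in the higher and 4.25% in the lower direction. The median log2 fold change of 0.041 was positive in 74 of 80 members, but under TMM scaling it was -0.049 and positive in 8, and under median-of-ratios scaling -0.013. Rps15 had the largest rise, with 1009, 1018 and 973 RPKM in vehicle and 1038, 1085 and 1129.7 RPKM in 7aaRGD samples (log2 fold change 0.12, 95% interval -0.036 to 0.27), and Rpl22l1 the largest fall (log2 fold change -0.22, interval -0.46 to 0.011, adjusted p = 0.384). With the control peptide 7aaRAE, no gene at all was called, no member had an unadjusted p under 0.05 (3.31% of all genes higher, 3.06% lower), and the median lay between -0.0092 and 0.020 over all scalings tried. The largest rise there was Rps10 (log2 fold change 0.17, SE 0.084, adjusted p = 0.718) and the largest fall Rpl24 (log2 fold change -0.10, SE 0.052, adjusted p = 0.718). The peptides differ in the RGD or RAE motif, and their direct comparison also called no member, with a median of 0.040 that turned to -0.046 under TMM scaling, -0.0051 under median-of-ratios scaling and -0.0025 with the length trend removed. Rplp0 stood at 1019.7, 1077 and 967 RPKM with vehicle, 1033, 1071 and 1134 RPKM with 7aaRGD and 1073, 1019.6 and 969.7 RPKM with 7aaRAE, and the interval of the difference between the peptides was -0.083 to 0.24 on the log2 scale. The interval for Rpsa was -0.12 to 0.28 and for Rps6 -0.12 to 0.26.

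In U87-MG gliomas, where the host mice lack mature T cells, no member was called with 7aaRGD, with 7aaRAE or between the peptides by limma (of all genes, 0.0104% were called higher with 7aaRAE and none in the other comparisons), and 1 member, Rps3a1, had an unadjusted p under 0.05 with each peptide. It was in the lower direction, in which 2.35% of all genes passed that level with 7aaRGD and 4.29% with 7aaRAE, beside 1.43% and 3.43% in the higher direction. The medians were -0.079, -0.038 and -0.041, and with the length trend removed they were -0.025, 0.017 and -0.049. Rplp0 had 645, 795 and 722 RPKM with vehicle, 672, 722 and 662 RPKM with 7aaRGD and 671, 675 and 757 RPKM with 7aaRAE, with an interval of -0.31 to 0.17 for 7aaRGD against vehicle on the log2 scale. That interval for Rpl36 was -0.29 to 0.20 and for Rps6 -0.33 to 0.15. Rpl39l, the paralog of Rpl39 known mainly from testis, was low and variable, at 1.77, 1.67 and 4.76 RPKM with vehicle, 5.60, 1.94 and 2.67 RPKM with 7aaRGD and 3.66, 4.35 and 1.44 RPKM with 7aaRAE.

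The U87-MG table differed from the GL261 tables in how its values fall on processed copies. In vehicle samples Rps3a3, a copy of Rps3a1, was at 35.8 ± 28.2 RPKM in U87-MG gliomas (SD, n = 3), against 2.86 ± 0.347 (n = 3) and 3.61 ± 0.56 (n = 4) in GL261 gliomas at 21 and 28 DPI. Rpsa-ps10 was at 130.4 ± 42.5 against 4.31 ± 0.863 and 6.46 ± 1.08 RPKM, and Rps2-ps10 at 58.7 ± 7.34 against 0.198 ± 0.106 and 0.28 ± 0.0719 RPKM. The parent Rps2 was lower in the U87-MG table, at 119 ± 9.27 against 464 ± 38.2 and 688 ± 27.3 RPKM. The tables were normalized separately, so these levels are set side by side and not tested.

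The member with the largest fall in U87-MG gliomas is set beside its copies here. Rps3a1, a small subunit protein, had 466, 535 and 485 RPKM with vehicle, 366, 343 and 369 RPKM with 7aaRGD and 371, 237 and 342 RPKM with 7aaRAE. No peptide sample reached the lowest vehicle sample (log2 fold changes -0.46 and -0.67, limma adjusted p = 0.941 and 0.312). Of all genes tested, 6.4% with 7aaRGD and 9.45% with 7aaRAE were lower without overlap, beside 3 and 4 of 81 members. The copy Rps3a3 had 39.3, 62.1 and 6.09 RPKM with vehicle, 88.5, 164 and 155 RPKM with 7aaRGD and 89.7, 191 and 228 RPKM with 7aaRAE. It was higher in every peptide sample than in any vehicle sample, as 4.43% and 7.01% of the protein-coding genes tested were with 7aaRGD and 7aaRAE. Rps3a1 and its copies Rps3a2 and Rps3a3 together came to 462 to 619 RPKM, and the groups overlapped in this sum. For Rps15a with its copies Rps15a-ps6 and Rps15a-ps7 the sum was less even. It was 53.6, 77.8 and 63.3 RPKM with vehicle, 73.1, 92.7 and 140 RPKM with 7aaRGD and 79.4, 91.5 and 63.8 RPKM with 7aaRAE. Whether reads shifted between a gene and its copies was not tested.

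**Figure D5:**
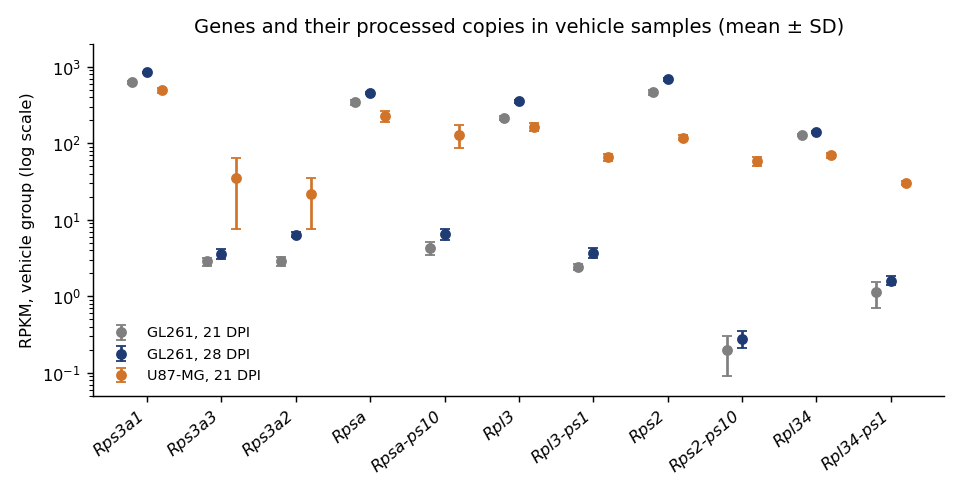
RPKM of genes and of their processed copies (x axis) in the vehicle groups of the 3 tables (colors), as mean ± SD on a log scale (y axis). Rps3a3, Rpsa-ps10, Rpl3-ps1, Rps2-ps10 and Rpl34-ps1 lie above the GL261 tables in the U87-MG table, and Rps2 lies below them.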

How the data were processed

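RNA-seq of FACS-sorted CD11b+ cells was analysed in 35 of 40 samples. The 2 further 28 DPI samples numbered 4 (anti-PD-1, combination) and the 3 naïve nude mice were not analysed here. According to the study's methods, the authors made poly-A selected stranded libraries, used Trimmomatic for trimming, STAR for alignment to mm10 and HTSeq 0.11.1 for counting. The deposited values are RPKM plus a constant of 2, a unit read from the values: 49.8% to 52.4% of them hold exactly the constant, and the rest multiplied by exonic length sums to about the same total in every sample. How the authors normalized them is not given in the sources used here. Some values lie under the constant (lowest 1.578), and replicate differences in the GL261 tables lack 1 dimension, so values were altered after normalization and p-values may be too small. Counts cannot be recovered, the depth per sample is unknown and count tests were not used. The plan had foreseen RPKM on this scale.

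Rows were matched to GENCODE M21 by symbol (98.7% of 54513). Values were tested as log2(RPKM + 1), where fold changes understate those of low genes, with limma 3.58.1 in R 4.3.3 (lmFit, eBayes with trend) over protein-coding genes whose mean reached 1 RPKM, with Benjamini-Hochberg adjustment at 0.05. All tumor-bearing groups of a table entered 1 fit, and naïve samples were fitted with vehicle alone. A second fit took all named rows, for noncoding genes and copies. NOISeq, the study's test, was not run. The fit was tested on simulated data.

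The members, lists and alternatives were chosen with earlier results of these data known. Named were stalk and landmark members, paralog pairs, the 5 largest rises and falls called in a comparison (up to 3 each way where fewer passed), the 5 highest and lowest by level, and the 3 least alike. Genes named with the 51 lower genes and those that lost a call by the length trend were chosen after their values were seen. The alternatives were other pseudocounts (0.1 and 5), a minimum mean of 5 RPKM or none, TMM and median-of-ratios scaling, scaling without the members, removal of a loess trend on log length per sample, 1 residual degree of freedom less, a replicate block, only the groups compared, an adjusted p under 0.1, and each sample left out. Some members and 1 list are not reported by name here.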

Additional observations from a re-analysis of the deposited data

Results flagged for a closer look

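In groups of 4 samples, a sample was singled out when its gap to the nearest other sample exceeded 0.829 of the group's range, and 2 of 60 groups looked at did so, where chance singles out about 1 in 20. Rps27l stood at 58.8 RPKM in 1 vehicle sample at 28 DPI, against 54.1, 54.4 and 54.7 RPKM in the others. Rps12 stood at 370.3 RPKM in 1 7aaRGD sample at 28 DPI, against 355, 356 and 357 RPKM in the others, a gap that is small beside the vehicle samples at 423 to 457 RPKM.

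Rps12 and Rps15, both of the small subunit, lay on opposite sides of vehicle with 7aaRGD at 21 and 28 DPI, in groups that did not overlap at either time. At 21 DPI 5 of 80 members were higher without overlap, a smaller share than the 1181 of 9436 genes tested. The other members among them were Rps21, Rpl5 and Rpl9. At 28 DPI 71 of 80 members were lower without overlap, when 4.05% of all genes were. Rps12 was at 299.0, 313 and 305 RPKM with vehicle and 319, 319.6 and 351 RPKM with 7aaRGD at 21 DPI (log2 fold change 0.11, limma adjusted p = 0.53). At 28 DPI its log2 fold change was -0.30 (adjusted p = 0.0342). Rps15 was at 973 to 1018 RPKM with vehicle and 1038 to 1129.7 RPKM with 7aaRGD at 21 DPI (log2 fold change 0.12, adjusted p = 0.487), and stood at 1157 to 1271 RPKM with vehicle and 949 to 1052.6 RPKM with 7aaRGD at 28 DPI (log2 fold change -0.30, adjusted p = 0.0475). The difference between the times was not tested, since the tables were normalized separately. The 28 DPI calls are among those lost under other scalings. The 21 DPI levels also depend on the scaling, since the members' median of 0.041 was -0.049 under TMM scaling, with 8 of 80 positive.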

How the results depend on the processing

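Of 259 recomputed counts of called members, 238 stayed within 1.5 times the main count or at 0. The count of 42 lower members for 7aaRGD against vehicle at 28 DPI was 26 with no filter, 12 with scaling without the members, and 0 under TMM scaling, median-of-ratios scaling, removal of the length trend, 1 residual degree of freedom less or only the groups compared. With each sample left out in turn it was 0 to 0, and the cause was not tested. The count of 0 for the combination against anti-PD-1 was 1 with a pseudocount of 5, 3 with a mean of at least 5 RPKM, 1 with scaling without the members and 20 at an adjusted p under 0.1, and leaving out a sample gave 0 to 2 (2 without combination replicate 2). Whether replicate numbers pair the GL261 samples could not be decided, because the values were altered after normalization in a way that is not known. Samples with the same number correlated above 0.1 in 3 of 19 cases at 28 DPI, and at 21 DPI in 1 of 9. With the replicate block the 7aaRGD count at 28 DPI was 0 while no other count moved beyond 1.5 times. No paired analysis was possible because the U87-MG columns carry no numbers, for that table. The fit of only the groups compared was not run for naïve mice and the interaction.

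Of 1920 recomputed values of named members, 1744 kept direction and side of the threshold, 153 were weaker, 3 stronger and 20 reversed. Rplp1 between naïve and vehicle mice turned to -0.48 with the length trend removed. The rest were fold changes near 0. For 7aaRGD at 28 DPI, Rps27l was -0.0053 under TMM and -0.0023 under median-of-ratios scaling, and -0.047 to 0.0697 with each sample left out. For anti-PD-1 it was -0.1005 to 0.0182 with each sample left out. For the combination, Rps27l was 0.0308, 0.0163 and 0.0278 under TMM scaling, median-of-ratios scaling and the length trend, and Rpl7l1 was -0.0554 to 0.1195 with each sample left out. For the combination against 7aaRGD, Rps27l was 0.0361 and 0.0186 and Rpl7l1 0.0502 and 0.033 under TMM and median-of-ratios scaling, and Rpl7l1 was -0.1553 to 0.0394 with each sample left out.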
